A study of Mus musculus with 18 samples.

Results

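WNT signalling works through β-catenin. Without a WNT ligand, a destruction complex of Axin, APC, casein kinase 1 and GSK3 marks β-catenin for degradation, and when GSK3 is blocked β-catenin accumulates and binds the TCF/LEF family of DNA-binding proteins at their target genes. In mouse embryonic stem cells (ESCs) the GSK3 inhibitor CHIR is a component of 2i+LIF, the culture medium that holds cells in naive pluripotency, and loss of TCF7L1 repression is known as the main route by which it acts there. The 10 genes described here are Ctnnb1 (β-catenin), the 4 TCF/LEF genes Tcf7l1, Tcf7l2, Tcf7 and Lef1, and 5 genes known as targets of the pathway, Axin2, Nkd1, Sp5, Rnf43 and Notum. They were chosen by symbol, with no threshold on a measured value but with earlier results of these data known. All were matched 1 to 1 among the 53801 genes of the count table.

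RNA sequencing compared 2 lines of mouse ESCs at 3 stages, with 3 libraries in each of the 6 groups and 18 in all. WT cells are the line labelled E14 wt. iEZR_CA cells are E14 cells with an integrated transgene from which doxycycline induces a constitutively active, phosphomimetic ezrin, a linker of plasma membrane and actin cortex, followed by mCherry. ESC libraries come from cells kept in 2i+LIF (0 h), and T24 and T48 libraries from cells moved to N2B27 medium alone for 24 h or 48 h, which starts exit from naive pluripotency. The change of medium takes away CHIR, the MEK inhibitor PD0325901 and LIF together, so the removal of the GSK3 inhibitor cannot be told apart from the removal of the other two. Doxycycline was given to iEZR_CA cells for some 16 h ahead of exit, and the sources used here state none for WT cells, so drug, transgene and any difference between the 2 cultures cannot be told apart in a comparison of the lines. The transgenic line is a single construct in 1 parental line, and the labels do not say whether libraries of a group came from separate cultures, while the study's methods call them biological replicates.

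Between 10940752 and 33276622 reads were counted on genes per library (median 23096248). Ezr, whose transgenic copy is counted with the endogenous gene if it maps there, served as a check of the labels and lay at 11763 ± 277, 7711 ± 175 and 10096 ± 413 normalized counts (mean ± SD, n = 3) in WT ESC, T24 and T48, and at 24819 ± 499, 20793 ± 564 and 16215 ± 165 in iEZR_CA, with every iEZR_CA library above every WT library of its stage. All 6 pluripotency markers listed (Pou5f1, Sox2, Sall4, Nanog, Esrrb, Zfp42) were detected in all 6 groups, and their summed normalized count was 99280 to 101000 in WT ESC, 23640 to 24320 in WT T48 and 29490 to 30700 in iEZR_CA T48. Markers of other cells also moved with stage. The 5 mesendoderm genes summed to 541 to 590 in WT ESC and 130 to 136 in WT T48, and in iEZR_CA to 660 to 714 and 241 to 281, with Mesp1 at 3 counts or fewer in every group but WT ESC. The 6 fibroblast genes summed to 34.1 to 52.8 in WT ESC and 575 to 639 in WT T48, and in iEZR_CA to 41.0 to 54.6 and 351 to 435, with Postn at 3 counts or fewer in all groups. The 5 trophoblast genes summed to 3242 to 3348 in WT ESC and 298 to 333 in WT T48, and to 3359 to 3488 and 888 to 988 in iEZR_CA. Eomes is on this list and on the mesendoderm list. In the same order, the 5 neural genes summed to 193 to 210, 542.5 to 689, 124 to 146 and 427 to 447.5. Neurog2 and Olig2 were at 3 counts or fewer in all groups, and Hes5 in every group but WT ESC. The 6 primitive endoderm genes had 203 to 208, 117 to 142, 131 to 154 and 69.55 to 102. The 5 genes of 2-cell-like cells had 107 to 117.5, 30.6 to 47.5, 77 to 105 and 20.1 to 22.3. The part of these cells or genes in the changes described here was not tested, and in bulk RNA fewer cells of a type and less RNA per cell cannot be told apart.

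At exit of WT cells the largest rise among the 10 genes was that of Lef1, and Axin2 and Notum fell. All 10 passed the filter on low counts and were tested together with 18469 genes by edgeR's quasi-likelihood test, in which a call is an adjusted p under 0.05. Sp5 and Rnf43 passed only through the ESC groups, where they were high, so that their changes at exit were fixed by the filter, and they are given as levels and left out of the counts at exit. Of the other 8 members at T24 against ESC, 4 were called higher (Ctnnb1, Tcf7, Lef1, Nkd1) and 2 lower (Axin2, Notum), while 31.8% and 33.6% of all tested genes were. Of these calls, 2 (Lef1, Axin2) exceeded a factor of 2, against 20.8% of all genes. At T48 against ESC, the same 4 genes were called higher and 3 lower (Tcf7l1, Axin2, Notum), beside 37.1% and 37.4% of all genes, and 5 exceeded a factor of 2 (Tcf7l1, Lef1, Axin2, Nkd1, Notum), beside 31.3%. From T24 to T48, 2 were called higher (Lef1, Nkd1) and 4 lower (Ctnnb1, Tcf7l1, Axin2, Notum), beside 32.8% and 32.9%. The median log2 fold change of all tested genes was -0.01 at T24 and 0.01 at T48. The shares of all tested genes, here and below, still include genes that passed the filter through the ESC groups only, unlike the counts of the 8 members.

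In iEZR_CA cells, 4 of the same 8 members were called higher at T24 (Ctnnb1, Tcf7l1, Lef1, Notum) and 3 lower (Tcf7l2, Tcf7, Axin2), beside 27.1% and 28.9% of all tested genes, and 2 exceeded a factor of 2 (Lef1, Axin2), beside 14.9%. At T48, 3 were called higher (Ctnnb1, Lef1, Nkd1) and 5 lower (Tcf7l1, Tcf7l2, Tcf7, Axin2, Notum), beside 35.2% and 35.0%, and 4 exceeded a factor of 2 (Lef1, Axin2, Nkd1, Notum), beside 26.1%. From T24 to T48, 2 were called higher (Lef1, Nkd1) and 4 lower (Tcf7l1, Tcf7l2, Axin2, Notum), beside 29.6% and 30.0%.

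**Figure D1:**
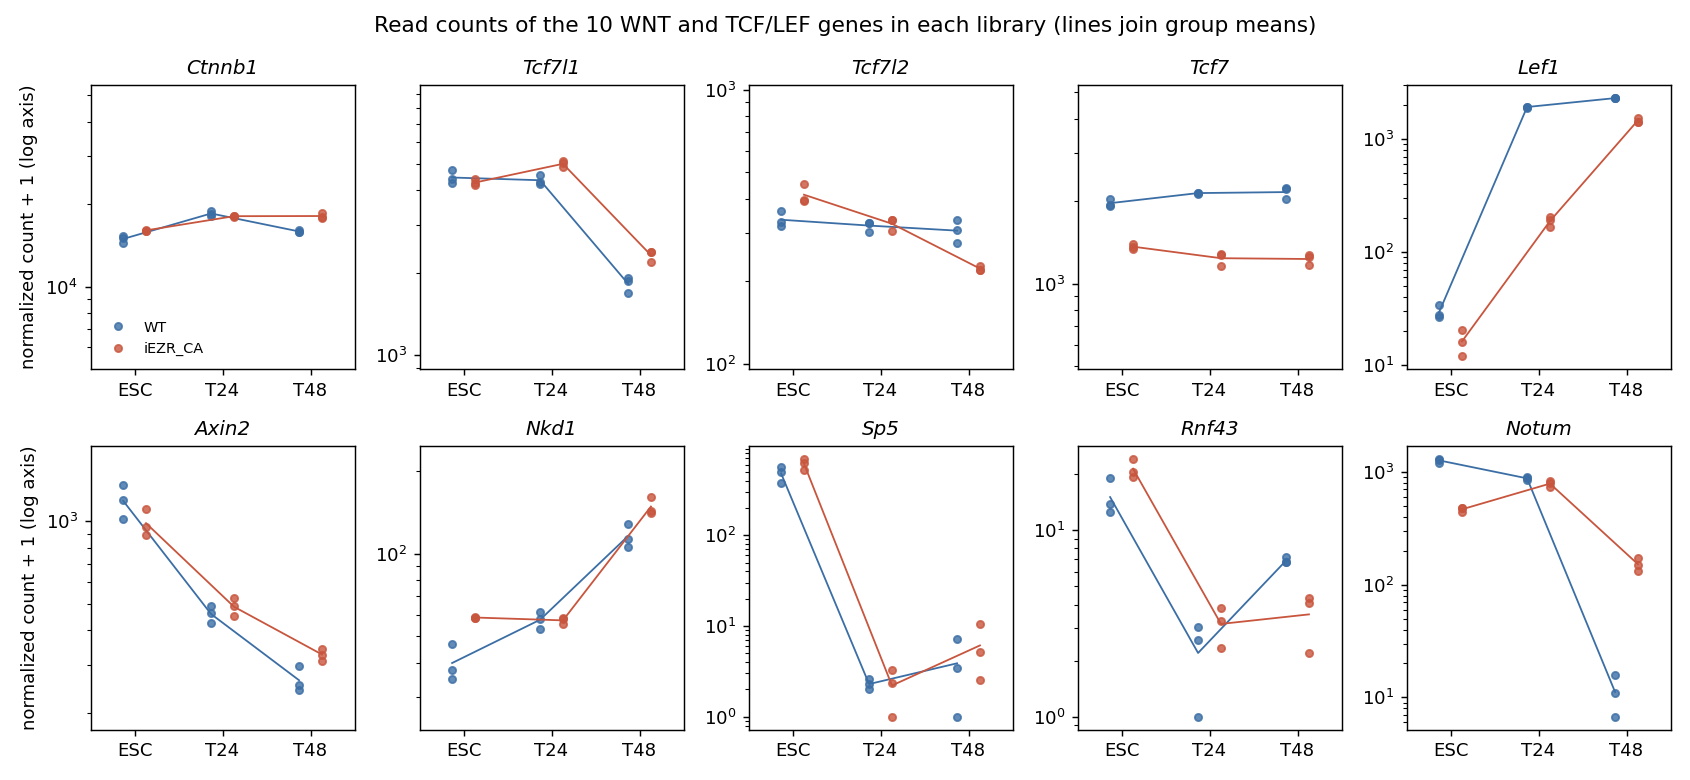
Normalized count plus 1 of the 10 genes in every library, on log axes, against stage (ESC, T24, T48) for WT (blue) and iEZR_CA (red); points are libraries and lines join the means of 3. Lef1 climbs from under 33 counts in ESC in both lines, reaching 1898 to 1945 in WT and 168 to 202 in iEZR_CA at T24, and Notum at T48 lies between 5.74 and 14.7 in WT and between 132 and 171 in iEZR_CA.

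Promoter sequence from RefSeq on GRCm38.p6 (250 bases before to 50 after each annotated start) was available for 9 of the 10 genes, in 16 windows, while Notum had no entry. The sequence CTTTGAT, or its reverse complement, is the classic TCF/LEF recognition word and occurred in 1 of the 16 windows, that of Sp5, and in 3.73% of all 32851 windows. The 5-base core CTTTG, which CTTTGAT contains, occurred on either strand in 8 of the 16 windows and in 53.9% of all windows. Those 8 windows belonged to 4 members (Tcf7l1, Tcf7l2, Lef1, Sp5). The Sp5 window held 5 cores, a number reached by 0.286% of all windows. The 250 bases upstream of Sp5, Axin2 and Lef1 are shown on the + strand with every match to CTTTG or CTTTGAT on either strand in capitals.
Sp5 (chr2:70474673-70474922): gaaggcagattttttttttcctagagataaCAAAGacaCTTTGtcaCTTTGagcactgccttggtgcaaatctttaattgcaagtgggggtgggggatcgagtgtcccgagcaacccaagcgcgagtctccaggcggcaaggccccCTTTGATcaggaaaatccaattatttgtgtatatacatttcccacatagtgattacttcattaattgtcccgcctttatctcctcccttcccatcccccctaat
Axin2 (chr11:108920099-108920348): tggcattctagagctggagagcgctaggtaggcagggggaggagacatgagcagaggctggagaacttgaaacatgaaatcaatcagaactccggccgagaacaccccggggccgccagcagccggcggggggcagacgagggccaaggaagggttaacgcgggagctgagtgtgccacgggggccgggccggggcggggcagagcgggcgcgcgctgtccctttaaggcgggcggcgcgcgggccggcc
Lef1 (chr3:131110047-131110296): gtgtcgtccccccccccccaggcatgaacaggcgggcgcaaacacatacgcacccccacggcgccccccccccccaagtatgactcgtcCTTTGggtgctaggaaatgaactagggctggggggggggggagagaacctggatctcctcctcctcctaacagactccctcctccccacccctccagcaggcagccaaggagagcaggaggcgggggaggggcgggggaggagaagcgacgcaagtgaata
The stretch upstream of Sp5 holds 4 of the 5 cores, the other lying after the start, and the full word, which contains 1 of them, lies 104 to 98 bases before its start. The stretch upstream of Axin2 holds no match and that of the most upstream Lef1 start holds 1 core. A match describes letters and does not show that a factor binds, and an empty window does not speak for sites elsewhere. Whether matches go with the changes at exit was not tested.

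Ctnnb1 encodes β-catenin itself, the signal carrier of the pathway and a partner of cadherins at cell junctions (chr9:120929216-120960507, + strand, GRCm38). It was the most abundant of the 10 genes per length in all 6 groups. Its normalized counts were 15103, 15283 and 14407 in WT ESC, 18092, 18464 and 18947 at T24 and 15813, 15862 and 16034 at T48. The iEZR_CA libraries held 16146, 15988 and 16005, then 17923, 18139 and 18187, then 17754, 18569 and 17999. All T24 and T48 libraries lay above all ESC libraries of their line, yet by small steps. In WT the log2 level rose by 0.30 ± 0.02 (adjusted p = 8.6e-18) at T24 and by 0.08 ± 0.02 (adjusted p = 0.0036) at T48, errors being SE throughout. The T48 call was lost without the third WT ESC library, at 0.05 (adjusted p = 0.056), and when no filter on low counts was used, at 0.04 (adjusted p = 0.4). In iEZR_CA it rose by 0.17 ± 0.02 (adjusted p = 7.4e-09) at T24 and by 0.17 ± 0.02 (adjusted p = 2.2e-09) at T48. The mRNA of Ctnnb1 says nothing of β-catenin protein, which the pathway controls by degradation and which was not measured in these libraries.

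Tcf7l1 encodes TCF7L1 (TCF3 in older usage), which acts mainly as a repressor of target genes in ESCs (chr6:72626378-72789254, - strand). At T24 it rose in iEZR_CA and was not called in WT, and by T48 it fell in both lines. WT libraries had 4731, 4384 and 4249.6 normalized counts in ESC, 4566, 4201 and 4294 at T24 and 1909.6, 1692 and 1868 at T48. In iEZR_CA the counts were 4393, 4246 and 4171, then 5019, 4870.4 and 5107, then 2376, 2193 and 2384. ESC libraries of the lines overlapped, whereas at T24 and T48 every iEZR_CA library stood above every WT library. The change from ESC to T24 was -0.04 ± 0.04 (adjusted p = 0.41) in WT and 0.22 ± 0.04 (adjusted p = 3.7e-05) in iEZR_CA on the log2 scale. By T48 the gene fell by 1.29 ± 0.04 (adjusted p = 2.7e-20) in WT and by 0.89 ± 0.04 (adjusted p = 1.3e-16) in iEZR_CA. Relative to WT it was higher by 0.20 ± 0.04 (adjusted p = 0.00015) at T24 and by 0.34 ± 0.05 (adjusted p = 4e-07) at T48 in iEZR_CA. The T24 difference was not called under spike-in scaling, at 0.27 (adjusted p = 0.075).

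Lef1 encodes LEF1, the family member best known as an activator and itself a WNT target in many tissues (chr3:131110471-131224356, + strand). Of the 10 genes it rose most at exit, starting from low counts. WT libraries held 27, 32.9 and 25.5 normalized counts in ESC, 1940.5, 1945 and 1898 at T24 and 2303, 2308 and 2324 at T48, so the rise was nearly complete at T24. iEZR_CA libraries held 11.1, 15.1 and 19.6 in ESC, 202, 168 and 193 at T24 and 1545, 1433 and 1430.5 at T48. At each stage all iEZR_CA libraries lay below all WT libraries, the gap being widest at T24. In WT the log2 level rose by 6.05 ± 0.08 (adjusted p = 2.6e-61) at T24 and by 6.31 ± 0.08 (adjusted p = 2.2e-63) at T48. In iEZR_CA it rose by 3.62 ± 0.16 (adjusted p = 4.3e-31) at T24 and by 6.61 ± 0.10 (adjusted p = 2.6e-58) at T48. The T24 level of iEZR_CA was -3.38 ± 0.06 (adjusted p = 4.8e-54) relative to WT, a mean of 188 against 1928 normalized counts, and by T48 the difference was -0.65 ± 0.04 (adjusted p = 9.2e-23). In ESCs, where both lines had few reads, it was -0.95 ± 0.24 (adjusted p = 0.00058). An antisense gene, Gm43352, shares 1208 bases of exon with Lef1 and collected 90 reads over all 18 libraries.

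Tcf7 encodes TCF1, an activator of WNT targets in ESCs (chr11:52252371-52283014, - strand). It differed more between the lines than between the stages. WT libraries had 2047, 1944 and 1920 normalized counts in ESC, 2148, 2136 and 2150.1 at T24 and 2242, 2212 and 2034 at T48. iEZR_CA libraries had 1396, 1364 and 1338, then 1284, 1161 and 1275, then 1255, 1271 and 1169. All iEZR_CA libraries were below all WT libraries at each stage, with log2 differences of -0.53 ± 0.04 (adjusted p = 2.1e-18) in ESC, -0.80 ± 0.04 (adjusted p = 4.6e-27) at T24 and -0.80 ± 0.04 (adjusted p = 2.9e-27) at T48. Exit itself moved the gene little, by 0.11 ± 0.04 (adjusted p = 0.0082) at T24 and 0.12 ± 0.04 (adjusted p = 0.0046) at T48 in WT. The first of these calls was lost under spike-in scaling, at 0.24 (adjusted p = 0.11), and the second without the first WT T48 library, at 0.08 (adjusted p = 0.075), and with no filter, at 0.09 (adjusted p = 0.11). In iEZR_CA the changes were -0.15 ± 0.04 (adjusted p = 0.0021) and -0.15 ± 0.04 (adjusted p = 0.0018), a direction that flipped to 0.0027 and 0.10, neither called, when libraries were scaled to spike-in RNA. The T24 call also went without the second iEZR_CA T24 library, at -0.10 (adjusted p = 0.071).

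Tcf7l2 encodes TCF7L2 (TCF4 in older usage), which carries WNT signals in gut and other tissues (chr19:55741820-55933654, + strand), and it was the least counted of the family in ESCs after Lef1. WT libraries had 327, 359 and 318 normalized counts in ESC, 327, 326 and 303 at T24 and 306, 275 and 334 at T48, 3 groups that overlapped, with log2 changes of -0.08 ± 0.07 (adjusted p = 0.38) and -0.13 ± 0.08 (adjusted p = 0.13). The second of these reached -0.20 (adjusted p = 0.039) without the third WT T48 library, and both turned positive, though not called, under spike-in scaling (0.06 and 0.13). iEZR_CA libraries began higher and ended lower, with 452, 393 and 395 in ESC, 333, 303 and 334 at T24 and 226, 219 and 219 at T48. There the gene fell by 0.36 ± 0.07 (adjusted p = 2.3e-05) at T24 and by 0.90 ± 0.08 (adjusted p = 1.8e-16) at T48. The difference between the lines was 0.29 ± 0.07 (adjusted p = 0.00045) in ESC, 0.0043 ± 0.08 (adjusted p = 0.97) at T24 and -0.48 ± 0.08 (adjusted p = 4.7e-07) at T48. Under spike-in scaling the iEZR_CA change at T24 was -0.21 (adjusted p = 0.28) and the difference in ESC 0.35 (adjusted p = 0.053), neither called.

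Levels of different genes can be compared only per length, here as reads per kilobase of the union of a gene's exons after scaling for library depth. On this scale the 4 TCF/LEF genes together stood at 91.5 ± 3.83 (SD, n = 3) in WT ESC, 102 ± 2.33 at T24 and 76.2 ± 2.1 at T48. Tcf7l1 made up 58.9% ± 0.563 of that sum in WT ESC, 50.8% ± 1.02 at T24 and 29.3% ± 1.61 at T48, so it passed from first to second place behind Tcf7, whose share was 39% ± 0.486, 37.5% ± 0.799 and 51.9% ± 1.94. Lef1 went from 0.168% ± 0.0248 to 10.1% ± 0.244 and 16.6% ± 0.529. In iEZR_CA, Tcf7l1 kept the first place at all 3 stages, with 65.7% ± 0.04, 70.6% ± 0.776 and 47.2% ± 1.79. Lef1 there was 0.105% ± 0.0319, 1.18% ± 0.0796 and 13.3% ± 0.294, and Tcf7l2 never exceeded 2.84% ± 0.162 in any group. With the longest annotated transcript as length, the share of Lef1 at T48 became 28.9% ± 0.753 in WT, above the 27.4% ± 1.39 of Tcf7l1, and 23.3% ± 0.468 in iEZR_CA. The first place was the same by both lengths in each group.

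On the same per-length scale, with mean ± SD over 3 libraries, the 10 genes spanned from 137 ± 3.17 for Ctnnb1 to 0.102 ± 0.0248 for Rnf43 in WT ESC. Below Ctnnb1 and Tcf7l1 the order there was Tcf7 (35.7 ± 1.1), Notum (25 ± 1.2), Sp5 (10.8 ± 2.18), Axin2 (10.2 ± 1.42), Tcf7l2, Nkd1, Lef1 and Rnf43, and of these neighbours Sp5 and Axin2 overlapped in their libraries. At WT T48 the order was Ctnnb1, Tcf7, Tcf7l1, Lef1 (12.6 ± 0.123), Axin2 (2.29 ± 0.24), Tcf7l2, Nkd1, Notum, Sp5 and Rnf43, where the last 3 overlapped from one to the next. At iEZR_CA T48 Notum (3.04 ± 0.409) and Axin2 (2.87 ± 0.141) overlapped, and both stood above Nkd1 and Tcf7l2. The length used moved some of these places. With the longest transcript Lef1 stood above Notum at WT T24 and above Tcf7l1 at WT T48, and 2, 2 and 4 members changed place in WT ESC, T24 and T48 and 2, 0 and 4 in iEZR_CA.

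**Figure D2:**
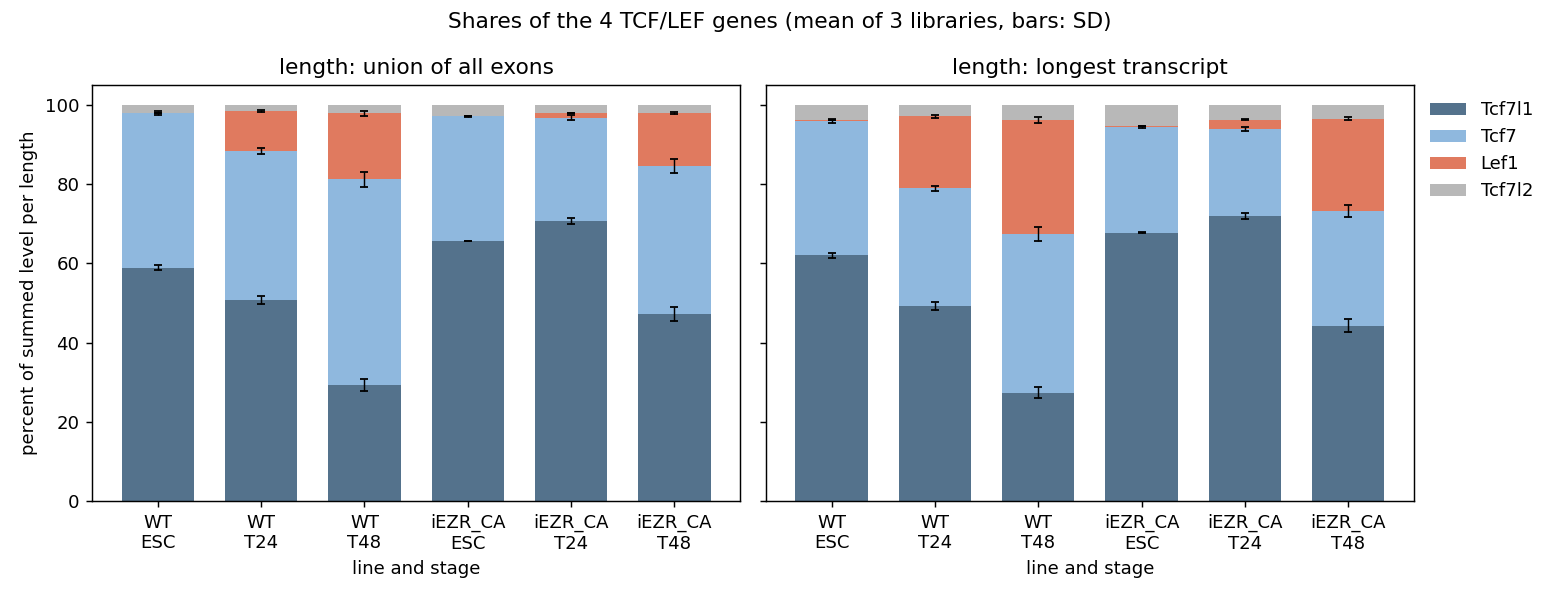
Percent of the summed level per length of the 4 TCF/LEF genes taken by each, by line and stage (bars: means of 3 libraries; error bars: SD of the share whose top they sit on, shown for all but Tcf7l2), with length as the union of exons (left) or the longest transcript (right). On the left, Lef1 reaches 16.6% in WT and 13.3% in iEZR_CA at T48, and at T24 it has 10.1% in WT and 1.18% in iEZR_CA.

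Sp5 encodes a zinc-finger factor known as a direct WNT target that dampens other TCF targets (chr2:70474923-70477729, + strand). Its transcript all but vanished within 24 h. Normalized counts were 568, 494 and 371 in WT ESC, 1.29, 1.01 and 1.58 at T24 and 6.18, 0 and 2.46 at T48. In iEZR_CA they were 697, 617 and 525, then 1.35, 2.28 and 0, then 4.18, 1.54 and 9.59. Summed over 3 libraries, 1587 reads in WT ESC stood against 4 at T24, a ratio corrected for depth of 374 (95% counting interval 146 to 1374). In iEZR_CA, 1741 reads stood against 4, a ratio of 484 (95% counting interval 188 to 1777). At T48 the ratios were 130.1 (95% counting interval 72.5 to 261) in WT and 137 (95% counting interval 83.1 to 246) in iEZR_CA. These intervals cover counting error only. They do not test the fall, since Sp5 passed the filter only through the ESC groups, where it was high. Between the lines the ESC libraries overlapped, and the log2 difference of 0.37 ± 0.14 (adjusted p = 0.039) was not called when any 1 of 9 of the 18 libraries was left out (0.22 to 0.41) or when only the ESC groups were fitted, at 0.39 (adjusted p = 0.14). At T24 and T48 so few reads remained that a difference between the lines was not detectable at this depth, the ratios of iEZR_CA to WT being 1.02 (95% counting interval 0.19 to 5.46) and 1.245 (95% counting interval 0.534 to 3).

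Axin2, a scaffold of the destruction complex and the standard feedback target of the pathway (chr11:108920349-108950783, + strand), fell in steps and stayed expressed. WT libraries had 1359, 1192 and 1016 normalized counts in ESC, 489, 460.3 and 424 at T24 and 240.3, 294 and 251 at T48. iEZR_CA libraries had 1113, 952 and 889, then 522, 450.5 and 489, then 325, 342 and 309. In each line the 3 stages did not overlap, and the ESC libraries of a line spread more widely than those of Ctnnb1 or Tcf7. The log2 level fell by 1.36 ± 0.11 (adjusted p = 3.4e-08) at T24 and by 2.22 ± 0.12 (adjusted p = 2.6e-10) at T48 in WT. In iEZR_CA it fell by 1.04 ± 0.11 (adjusted p = 1.5e-06) and by 1.59 ± 0.12 (adjusted p = 1.2e-08). The lines overlapped in ESC, at -0.27 ± 0.10 (adjusted p = 0.032), a call lost without replicate 1 or 2 of WT or replicate 2 or 3 of iEZR_CA ESC (-0.26 to -0.18), and also when only the ESC groups were fitted, at -0.26 (adjusted p = 0.16), or spike-in scaling was used, at -0.23 (adjusted p = 0.2). They also overlapped at T24, at 0.06 ± 0.12 (adjusted p = 0.72). At T48 all iEZR_CA libraries lay above all WT libraries, at 0.36 ± 0.15 (adjusted p = 0.045), a call at the threshold that was lost with median-of-ratios size factors, at 0.36 (adjusted p = 0.054), and without any 1 of 12 of the 18 libraries (0.30 to 0.40).

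Nkd1 encodes a Dishevelled-binding antagonist and is another feedback target (chr8:88521354-88594884, + strand), but it rose where Axin2 and Sp5 fell. WT libraries had 46.1, 36.7 and 34.1 normalized counts in ESC, 52.2, 60.6 and 56.7 at T24 and 113, 128 and 105 at T48. iEZR_CA libraries had 57.6, 57.8 and 57.4, then 56.7, 54.7 and 57.2, then 143, 140 and 161. In WT every stage stood above the one before, whereas in iEZR_CA the rise came between T24 and T48. The log2 level rose by 0.53 ± 0.17 (adjusted p = 0.0049) at T24 and by 1.54 ± 0.15 (adjusted p = 8.4e-15) at T48 in WT. In iEZR_CA the changes were -0.04 ± 0.16 (adjusted p = 0.84) and 1.34 ± 0.13 (adjusted p = 3.1e-14), the first turning to 0.12, not called, under spike-in scaling. iEZR_CA exceeded WT by 0.58 ± 0.17 (adjusted p = 0.0032) in ESC and by 0.39 ± 0.11 (adjusted p = 0.0028) at T48, and at T24 the difference was 0.01 ± 0.16 (adjusted p = 0.98). The T48 call was lost under spike-in scaling, at 0.42 (adjusted p = 0.053). Nkd1 lies on chromosome 8, where the median log2 difference between the lines over 958 tested genes was 0.18 in ESC, 0.21 at T24 and 0.18 at T48. Less that median the differences of Nkd1 were 0.40, -0.21 and 0.20, and the part of the chromosome in them was not tested. On the chromosomes of the other 9 genes the median stayed between -0.04 and 0.06.

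Notum encodes a secreted enzyme that takes the lipid off WNT proteins and so inactivates them (chr11:120653788-120661175, - strand), and it was the member whose level at T48 differed most between the lines. WT libraries had 1208, 1277 and 1314 normalized counts in ESC, 855, 899 and 876 at T24 and 10.05, 5.74 and 14.7 at T48. iEZR_CA libraries had 478, 479.6 and 438, then 796, 731 and 837, then 149.7, 132 and 171. WT cells thus began high and ended near 10 counts, and iEZR_CA cells began lower, peaked at T24 and kept a clear level at T48. The log2 level fell by 0.55 ± 0.05 (adjusted p = 6e-15) at T24 and by 6.82 ± 0.12 (adjusted p = 2.9e-55) at T48 in WT. In iEZR_CA it rose by 0.74 ± 0.06 (adjusted p = 5e-17) at T24 and fell by 1.66 ± 0.08 (adjusted p = 2.3e-28) from ESC to T48. The difference of iEZR_CA from WT was -1.45 ± 0.06 (adjusted p = 1e-32) in ESC and 3.72 ± 0.19 (adjusted p = 1.1e-27) at T48, with no overlap of libraries at either stage, and its sign changed. The small T24 difference of -0.16 ± 0.06 (adjusted p = 0.012) was lost without the second WT T24 library, at -0.14 (adjusted p = 0.055), or the second iEZR_CA T24 library, at -0.09 (adjusted p = 0.21), and under spike-in scaling, at -0.09 (adjusted p = 0.66). The antisense gene Notumos shares 708 bases of exon with Notum and held 1448 reads over all libraries. Since the sources used here do not give the strand setting of the counting, reads over that stretch cannot be assigned with certainty.

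Rnf43 encodes a membrane E3 ligase that removes Frizzled receptors from the cell surface (chr11:87662722-87735539, + strand). It was barely expressed at any stage. Normalized counts were 18, 11.5 and 12.8 in WT ESC, 0, 2.02 and 1.58 at T24 and 6.18, 5.74 and 5.73 at T48. In iEZR_CA they were 23.3, 18.4 and 19.6, then 1.35, 2.28 and 2.81, then 3.35, 3.08 and 1.2. All ESC libraries stood above all later libraries of their line. Summed counts of ESC against T24 gave a ratio of 14.4 (95% counting interval 4.65 to 72.7) in WT and 9.05 (95% counting interval 4.12 to 23.5) in iEZR_CA. Against T48 the ratios were 2.3 (95% counting interval 1.31 to 4.22) and 7.5 (95% counting interval 3.69 to 17.2). These ratios and intervals describe levels and cover counting error only. They do not test the fall, since Rnf43 passed the filter only through the ESC groups, where it was high. None of the 3 differences between the lines was called, at 0.56 ± 0.32 (adjusted p = 0.13) in ESC, 1.14 ± 0.91 (adjusted p = 0.28) at T24 and -1.10 ± 0.58 (adjusted p = 0.098) at T48.

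**Figure D3:**
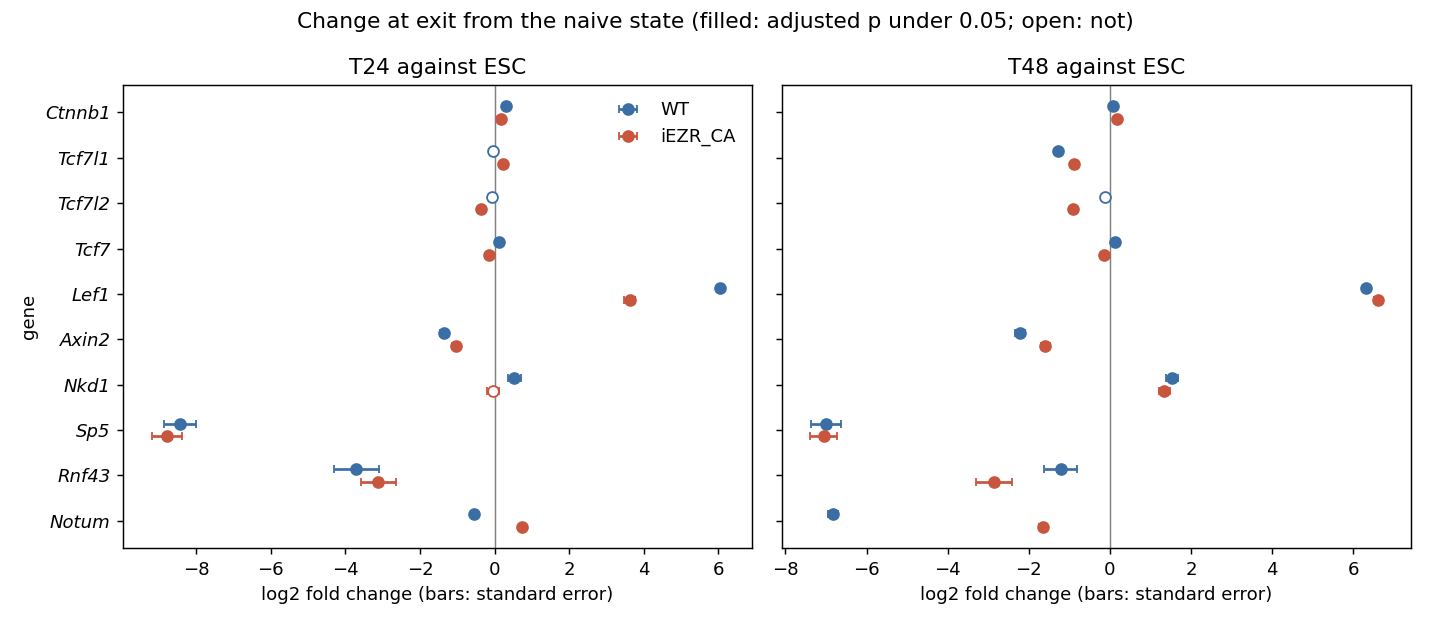
Log2 fold change against ESC (horizontal axis) of the 10 genes (vertical axis) at T24 (left) and T48 (right) in WT (blue) and iEZR_CA (red); bars are SE, filled points have an adjusted p under 0.05 and open points do not. At T24 Lef1 stands at 6.05 in WT and 3.62 in iEZR_CA and Notum at -0.55 and 0.74, and at T48 Notum stands at -6.82 and -1.66. The fitted values of Sp5 and Rnf43 depend on the prior count, since few reads remained after ESC. Both passed the filter only through the ESC groups, so their filled points show falls fixed by the filter and are not counted as calls.

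The comparison of the lines asks which of these genes differ between iEZR_CA and WT cells, where drug, transgene and culture cannot be told apart. In ESC, 4 members were higher in iEZR_CA (Ctnnb1, Tcf7l2, Nkd1, Sp5) and 4 lower (Tcf7, Lef1, Axin2, Notum), beside 26.4% and 28.1% of all tested genes. Notum alone exceeded a factor of 2, as did 11.9% of all genes. At T24, 1 was higher (Tcf7l1) and 3 lower (Tcf7, Lef1, Notum), beside 30.8% and 30.1%, and Lef1 exceeded a factor of 2, beside 14.9%. At T48, 5 were higher (Ctnnb1, Tcf7l1, Axin2, Nkd1, Notum) and 3 lower (Tcf7l2, Tcf7, Lef1), beside 31.0% and 30.1%, and Notum exceeded a factor of 2, beside 16.1%. Tcf7 and Lef1 were the 2 members lower in iEZR_CA at all 3 stages. For Ctnnb1 the differences were 0.10 ± 0.02 (adjusted p = 0.00043) in ESC, -0.03 ± 0.02 (adjusted p = 0.26) at T24 and 0.19 ± 0.02 (adjusted p = 1.2e-10) at T48, and for Tcf7l1 in ESC -0.07 ± 0.04 (adjusted p = 0.19). The calls of Ctnnb1 were lost under spike-in scaling, at 0.15 (adjusted p = 0.39) in ESC and 0.25 (adjusted p = 0.094) at T48, and the first also with no filter, at 0.08 (adjusted p = 0.077).

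Whether exit itself differed between the lines was tested by the interaction of line and time, that is the change from ESC in iEZR_CA minus the change in WT. At T24, 2 of the 8 members counted at exit had a positive interaction (Tcf7l1, Notum) and 5 a negative one (Ctnnb1, Tcf7l2, Tcf7, Lef1, Nkd1), beside 21.5% and 16.9% of all tested genes. Lef1, at -2.43 ± 0.29 (adjusted p = 1.8e-10), and Notum, at 1.29 ± 0.08 (adjusted p = 5.9e-22), exceeded a factor of 2, as did 8.50% of all genes. At T48, 4 of these 8 were positive (Ctnnb1, Tcf7l1, Axin2, Notum) and 2 negative (Tcf7l2, Tcf7), beside 25.7% and 20.0%, and Notum exceeded a factor of 2, beside 13.3%. Notum had the widest interaction of the 10 at T48, 5.17 ± 0.19 (adjusted p = 7.3e-35). For Lef1 the T48 interaction was 0.30 ± 0.25 (adjusted p = 0.36) and not called. For Axin2 it was 0.32 ± 0.16 (adjusted p = 0.13) at T24, not called, and 0.63 ± 0.18 (adjusted p = 0.0089) at T48. Rnf43 was left out of these counts, since it passed the filter only through the ESC groups. Its T48 interaction was -1.65 ± 0.66 (adjusted p = 0.035), resting on 18 and 9 reads in the T48 groups of WT and iEZR_CA. That call was lost with DESeq2, at -1.70 (adjusted p = 0.083), with no filter, at -1.61 (adjusted p = 0.093), under spike-in scaling, at -1.71 (adjusted p = 0.077), and without any 1 of 7 libraries. With no filter the T24 value of Axin2 was called, at 0.35 (adjusted p = 0.00062). Spike-in scaling left at T24 the calls of Lef1 and Notum alone and took away those of Ctnnb1, Tcf7l1, Tcf7l2, Tcf7 and Nkd1 (adjusted p = 0.52 for Tcf7l2). In that order the values were -0.11, 0.28, -0.27, -0.24 and -0.55, against -0.13, 0.26, -0.29, -0.26 and -0.57 in the test as reported. The SE was 0.18, 0.18, 0.21, 0.18 and 0.31, against 0.03, 0.06, 0.11, 0.06 and 0.23, so the errors widened more than the values moved. The calls of Tcf7l2 and Nkd1 at T24 were also lost with DESeq2 and with no filter, and that of Ctnnb1 with no filter. At T48 spike-in scaling took away the calls of Ctnnb1 (0.10), Tcf7l1 (0.41), Tcf7 (-0.27) and Rnf43, again with values close to those of the test as reported. The T48 call of Ctnnb1 was also lost with DESeq2, at 0.08 (adjusted p = 0.066), and with at least 10 counts required in every library, at 0.07 (adjusted p = 0.069). These contrasts share the ESC libraries of both lines.

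Other genes followed the members closely across the 18 libraries. Among 12801 tested genes averaging 50 normalized counts or more, those most like Lef1 on the log2 scale were Cbx1, Qser1 and Skil (Pearson r 0.996 to 0.997). For Axin2 they were Lima1, Mgrn1 and Gna13 (Pearson r 0.988 to 0.990), for Sp5 Ankrd10, Socs3 and Atp6ap1 (Pearson r 0.970 to 0.976) and for Notum Itpr3, Dock6 and H2-M5 (Pearson r 0.988 to 0.990). For Tcf7l1 they were Ptms, Zswim1 and Sox21 (Pearson r 0.982 to 0.983), for Tcf7 Rcn3, Elp3 and Nufip1 (Pearson r 0.980 to 0.983) and for Tcf7l2 Skida1, Mpi and Fh1 (Pearson r 0.906 to 0.925). For Ctnnb1 they were Hmgxb4, Steap2 and Hipk1 (Pearson r 0.968 to 0.972) and for Nkd1 Fem1b, Rbm3 and Cstf2 (Pearson r 0.962 to 0.974). Rnf43, with a mean under 50, was left out. The 18 points share line and stage and many genes follow these, so the values describe likeness only. By Spearman's correlation, 1 of the 3 genes was shared for Tcf7l2 (Mpi) and for Nkd1 (Cstf2) and 0 of 3 for each of the other members.

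The members sit among 108 other pathway genes on 9 lists, of which 96 were tested, and the shares of all tested genes that rose or fell at T48 (above) and their medians of 0.01 in both lines are the yardstick for these counts. Values given for them are mean normalized counts ± SD (n = 3) in ESC, T24 and T48 in that order. Unlike the counts of members at exit, the list counts and medians include any gene that passed the filter through the ESC groups only. Of 12 WNT ligands tested, 5 rose and 2 fell in WT at T48 (median log2 fold change 0.47) and 4 rose and 3 fell in iEZR_CA (median 0.44). Wnt8a, which is active in the gastrulating embryo, went 7.49 ± 1.79, 44.8 ± 3.54 and 952 ± 161 in WT and 18.7 ± 6.47, 15 ± 1.82 and 337 ± 8.7 in iEZR_CA, and Wnt7b 241 ± 16.9, 14.2 ± 3.59 and 9.44 ± 5.44 in WT and 175 ± 7.3, 112 ± 8.17 and 13.2 ± 0.651 in iEZR_CA, while Wnt5b was 67.6 ± 2.26, 24.2 ± 4.8 and 54.2 ± 12.9 in WT. Of the 2 genes for WNT secretion, 0 rose and 2 fell in WT at T48 (median log2 fold change -1.66) and 0 rose and 2 fell in iEZR_CA (median -0.48), Porcn, the acyltransferase that lipidates WNTs, with 407 ± 40.7, 555 ± 17.7 and 62.6 ± 7.67 in WT and 289 ± 48.8, 685 ± 61.5 and 195 ± 9.11 in iEZR_CA and Wls, the WNT carrier, with 266 ± 12.6, 136 ± 13.7 and 178 ± 5.54 in WT. Under spike-in scaling the T48 change of Wls in WT was not called, at -0.33 (adjusted p = 0.057). Of 15 receptors and co-receptors, 7 rose and 6 fell in WT at T48 (median log2 fold change 0.07) and 9 rose and 5 fell in iEZR_CA (median 0.30). Fzd7 went 894 ± 9.44, 5826 ± 69.1 and 5086 ± 284 and Ror1 28 ± 2.7, 182 ± 4.79 and 1398 ± 48.1 in WT, Fzd10 fell, with 1753 ± 118, 203 ± 20.3 and 191 ± 20.5, and the co-receptors stayed closer to their start, Lrp6 with 1883 ± 42.1, 1762 ± 168 and 2005 ± 74.3 and Lrp5 with 2210 ± 116, 1662 ± 78.6 and 2605 ± 129.

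Of 5 tested genes for R-spondins and receptor turnover, 2 rose and 1 fell in WT at T48 (median log2 fold change -0.11) and 4 rose and 0 fell in iEZR_CA (median 1.20), and examples were Lgr4, with 1790 ± 45.9, 4046 ± 157 and 2035 ± 53.2 in WT, Rspo1, with 30.2 ± 2.28, 88.8 ± 0.915 and 106 ± 17.9, and Znrf3, the paralog of Rnf43, with 614 ± 20.6, 653 ± 122 and 575 ± 49.9. Of 12 genes for Dishevelled and the destruction complex, 3 rose and 6 fell in WT at T48 (median log2 fold change -0.10) and 3 rose and 8 fell in iEZR_CA (median -0.22). Gsk3b, the kinase that CHIR inhibits with its paralog, went 3200 ± 292, 1719 ± 11.5 and 2067 ± 55.5 in WT and 4952 ± 49.1, 2670 ± 150.5 and 1940 ± 73 in iEZR_CA. Csnk1a1 had 10810 ± 204, 10790 ± 80.4 and 10110 ± 279, Apc 3561 ± 293, 3401 ± 162 and 3768 ± 304, Amer1 395 ± 40.8, 632 ± 25.6 and 890.5 ± 30.6 and Dvl3 1224 ± 106, 778 ± 26.5 and 653 ± 25.7 in WT. Of 13 secreted and membrane inhibitors, the list to which Notum is nearest in role, 2 rose and 8 fell in WT at T48 (median log2 fold change -0.76) and 2 rose and 8 fell in iEZR_CA (median -1.78). Sfrp1 went 2518 ± 76.3, 414 ± 23.9 and 395 ± 31.3 in WT and 1980 ± 32.8, 1014 ± 17 and 329 ± 15.9 in iEZR_CA, Apcdd1 457 ± 11.2, 135 ± 13 and 109 ± 2.35 in WT, Kremen1 508 ± 21, 489 ± 25 and 353 ± 10.2 and Sfrp2, which rose, 92.3 ± 9.998, 94.2 ± 0.369 and 379.8 ± 19.9. The call of Kremen1 was lost under spike-in scaling, at -0.28 (adjusted p = 0.076).

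Of 16 nuclear cofactors and repressors that work with TCF/LEF proteins, 9 rose and 7 fell in WT at T48 (median log2 fold change 0.28) and 8 rose and 7 fell in iEZR_CA (median 0.13). Aes, a short Groucho-family protein, went 5872 ± 167, 2480 ± 86.6 and 529 ± 18.7 in WT, Tle4 3122 ± 68.3, 10370 ± 164 and 3996 ± 109.7, Ctbp2 5104 ± 109, 10090 ± 59 and 8925 ± 176, Pygo1 148 ± 11.8, 31.6 ± 6.36 and 31.3 ± 2.27 and Chd8 3714 ± 33.6, 6993 ± 331 and 4740 ± 161. Of 14 other genes known as WNT targets, 8 rose and 5 fell in WT at T48 (median log2 fold change 0.49) and 7 rose and 6 fell in iEZR_CA (median 0.74), so that, as among the members, targets moved in both directions. Cdx1 also dropped to a few counts, with 791 ± 141, 2.06 ± 0.501 and 1.71 ± 0.859 in WT and 504 ± 53.3, 5.37 ± 2.31 and 4.81 ± 0.202 in iEZR_CA. Like Sp5, Cdx1 had too few counts after ESC to pass the filter there, so that its fall was fixed by the filter. Myc went 154 ± 32.3, 2204 ± 15.6 and 1288 ± 85.3 in WT, Ccnd1 3826 ± 95.6, 8521 ± 56.5 and 4050 ± 68, Tnfrsf19 955 ± 79.9, 284 ± 12.3 and 632 ± 90.9 and Sp8 42.5 ± 4.66, 102 ± 7.71 and 132 ± 18.6. The small T48 rise of Ccnd1 was not called with no filter, at 0.03 (adjusted p = 0.56), or when only the groups compared were fitted, at 0.06 (adjusted p = 0.11). Of 7 cadherin and catenin partners of β-catenin, 4 rose and 2 fell in WT at T48 (median log2 fold change 0.12) and 2 rose and 4 fell in iEZR_CA (median -0.32). Cdh1 (E-cadherin) had 16140 ± 658, 14870 ± 246 and 17710 ± 560.4 in WT and 23730 ± 322, 18570 ± 524 and 16660 ± 317 in iEZR_CA, Jup (γ-catenin) 5422 ± 132, 5650 ± 51.3 and 1882 ± 27.6, Ctnna1 12260 ± 204, 12750 ± 198 and 6850 ± 79.4 and Vcl 2144 ± 135, 3915 ± 202 and 3095 ± 107 in WT.

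**Figure D4:**
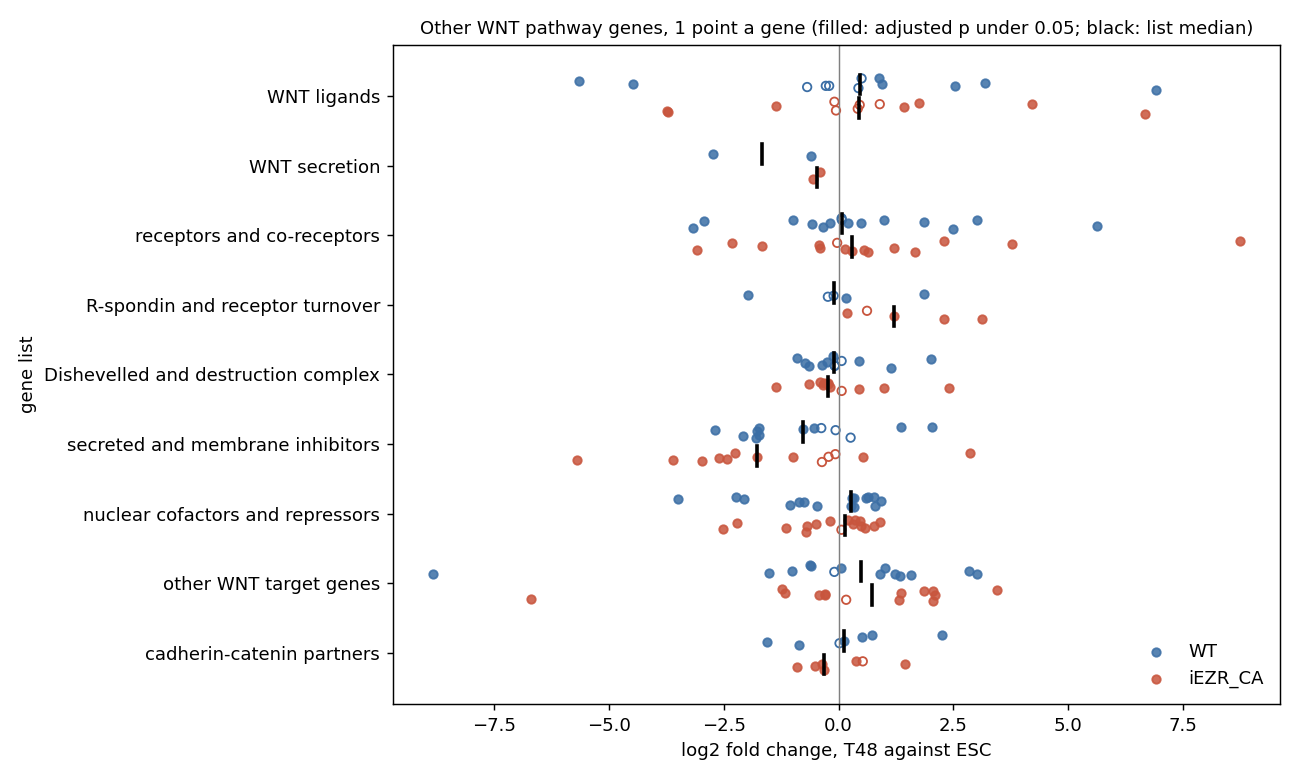
Log2 fold change of T48 against ESC (horizontal axis) for the tested genes of 9 pathway lists (vertical axis), 1 point a gene, in WT (blue) and iEZR_CA (red); filled points have an adjusted p under 0.05, open points do not, and black bars are list medians. The inhibitors have medians of -0.76 in WT and -1.78 in iEZR_CA, and the lists of ligands, receptors and targets spread to both sides of 0.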

How the data were processed

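Poly(A) RNA sequencing libraries were compared in 6 groups of 3. Paired-end reads were trimmed by the authors with Trim Galore 0.6.5, aligned to GRCm38 with GSNAP and counted with HTSeq on genes of Ensembl release 81, and the deposited values are raw counts per gene. The strand setting is not given in the sources used here. Reads outside genes (21.3% to 24.3% per library), ambiguous reads and spike-in sequences stayed out of library sizes and tests. Genes were filtered with filterByExpr and fitted with edgeR 4.0.16 (R 4.3.3; TMM, robust quasi-likelihood test, 1 fit of all 18 libraries with 6 group terms and 12 residual degrees of freedom, Benjamini-Hochberg adjustment over 18469 genes). SE is the absolute log2 fold change over the root of F. Normalized counts used size factors of DESeq2 1.42.0. The p-values rest on the spread between libraries within groups, pooled over the 6 groups and moderated across genes.

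The 10 members and the pathway and marker lists were chosen with earlier results of these data known. Of each pathway list, the genes named were the 3 with the highest mean normalized count, the 2 with the largest change at WT T48 and the 2 with the largest interaction at T24, among genes averaging 50 counts or more. Alternatives were median-of-ratios scaling, spike-in scaling, DESeq2, no filter or at least 10 counts in every library, fits of only the groups compared and leaving out each library.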

Additional observations from a re-analysis of the deposited data

Results flagged for a closer look

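The results listed here differ between the lines in their change at exit, by the interaction test of edgeR (adjusted p under 0.05). Values are log2 changes from ESC in iEZR_CA minus those in WT. At T24 the members were Ctnnb1 (-0.13), Tcf7l1 (0.26), Tcf7l2 (-0.29), Tcf7 (-0.26), Lef1 (-2.43), Nkd1 (-0.57) and Notum (1.29). At T48 they were Ctnnb1 (0.10), Tcf7l1 (0.40), Tcf7l2 (-0.77), Tcf7 (-0.27), Axin2 (0.63), Rnf43 (-1.65) and Notum (5.17). Rnf43 passed the filter only through the ESC groups, which fixed its changes at exit, and was not counted among the interactions above. The call of Nkd1 at T24 was lost without any 1 of 13 of the 18 libraries, that of Tcf7l2 at T24 without any 1 of 5, that of Rnf43 at T48 without any 1 of 7 and that of Ctnnb1 at T48 without any 1 of 3.

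Of the 2 genes of each pathway list with the largest interaction at T24, those called positive were Wnt7b (3.41), Porcn (0.84), Wls (0.86), Ror1 (4.64), Fzd10 (1.64), Lgr4 (0.34), Rspo1 (0.74), Dvl3 (0.40), Sfrp1 (1.64), Sfrp2 (1.60), Pygo1 (1.76) and Jup (0.30). Those called negative were Wnt8a (-2.79), Amer1 (-0.27), Tle4 (-0.94), Sp8 (-1.14) and Vcl (-0.40). The value of Ror1 depends on the prior count, since its mean in iEZR_CA ESC was 1.3 normalized counts. The call of Rspo1 (adjusted p = 0.043) was lost without any 1 of 10 of the 18 libraries, with DESeq2 (adjusted p = 0.08) and with no filter (adjusted p = 0.081), and that of Amer1 (adjusted p = 0.028) without any 1 of 7 and with no filter (adjusted p = 0.076). Under spike-in scaling the calls of Lgr4 (0.36, adjusted p = 0.22), Rspo1 (0.77, adjusted p = 0.16) and Dvl3 (0.43, adjusted p = 0.11) were lost. Those of Jup (0.31, adjusted p = 0.3), Amer1 (-0.24, adjusted p = 0.55) and Vcl (-0.38, adjusted p = 0.16) were lost too. Genes named in the report for their level or their T48 change were called at T24 too, Wnt5b (0.89), Fzd7 (0.22), Lrp6 (0.23), Lrp5 (0.25), Kremen1 (0.23), Apcdd1 (0.52), Aes (0.46) and Tnfrsf19 (0.72) as positive and Csnk1a1 (-0.10), Ctbp2 (-0.27), Chd8 (-0.36), Ccnd1 (-0.53), Myc (-0.53) and Cdh1 (-0.23) as negative, and these were not recomputed under other settings. No cause was tested for any of these.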

How the results depend on the processing

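Of 1620 values of members obtained by leaving out 1 library, 1544 kept their direction and side of the threshold, as did 89 of 90 with median-of-ratios scaling and 85 of 90 with DESeq2, but 64 of 90 with spike-in scaling. Spike-in scaling raised the share of calls that were higher from 48.6% to 61.6% (WT T24), 49.8% to 66.3% (WT T48), 49.9% to 61.8% (WT T48 against T24), 48.4% to 68.9% (iEZR_CA T24), 50.1% to 69.4% (iEZR_CA T48), 50.6% to 61.1% (lines at T24) and 56.0% to 68.5% (interaction at T24). Counts that follow are over all 10 members, including Sp5 and Rnf43, whose falls at exit were fixed by the filter. Under spike-in scaling 3 members were lower at iEZR_CA T24 (5 in the test as reported), beside 2051 of 18469 genes (5331 in the test as reported). In iEZR_CA, 2, 0 and 3 were higher than in WT at ESC, T24 and T48, beside 3074, 4355 and 4029 genes. Called interactions fell to 1 positive and 1 negative at T24, beside 1656 and 760 genes. At T48 they fell to 2 positive and 1 negative, beside 2241 and 1640 genes. Spike-in scaling turned the sign of Ctnnb1 between lines at T24 (0.041), Tcf7l1 at WT T24 (0.089) and Tcf7l2 at WT T24 (0.0557) and T48 (0.1283). The sign also turned for Tcf7 at iEZR_CA T24 (0.0027) and T48 (0.1047), Nkd1 at iEZR_CA T24 (0.1173), and Znrf3 (0.1572) and Csnk1a1 (0.1461) at WT T48. The cause was not tested. With at least 10 counts in every library, 7 of the 10 members were tested (Sp5, Rnf43 and Notum were not). Of these, 1, 2, 3 and 4 were lower at WT T24, WT T48, iEZR_CA T24 and iEZR_CA T48. The genes called lower there numbered 4820, 5232, 4290 and 4963 of 13185. Higher interactions numbered 1 at T24 and 2 at T48, beside 3285 and 3851 genes. With no filter 2 members were higher at WT T48, beside 7143 of 36836 genes. Lower interactions at T24 numbered 2 with no filter, beside 2361 genes, and 3 with DESeq2, beside 2872 of 18469. With 1 library left out they numbered 3 to 5, lowest without WT ESC replicate 3 (beside 2923 of 18688 genes). DESeq2 gave -0.0003 for Nkd1 between lines at T24.

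With 1 library left out, uncalled values changed sign for Tcf7l1 at WT T24 (-0.087 to 0.0001), for Tcf7l2 (-0.0234 to 0.061), Nkd1 (-0.0665 to 0.0629) and Sp5 (-1.0286 to 0.5838) between lines at T24, for Sp5 between lines at T48 (-0.3469 to 1.3285), and for the interactions of Sp5 at T24 (-1.4004 to 0.2115) and T48 (-0.7185 to 0.9555) and of Rnf43 at T24 (-0.2847 to 1.4709). Sp5 and Rnf43 had 18 reads or fewer in each group after ESC, which limits these values. No paired analysis was possible because the labels give no replicate numbers.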
